A study of Mus musculus with 44 samples.

Results

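In wild-type (WT) mouse cortical neurons kept 7 days in vitro (DIV7) and left unstimulated, 3808 regions of open chromatin stood nearer to the top of the peak lists with FHT1015 than with DMSO, out of 110085 regions in all. The measurement was ATAC-seq, in which a transposase marks DNA that it can reach. For each of the 8 unstimulated DIV7 libraries of the drug experiment, the 75000 autosomal intervals with the highest −log10 p of the authors' peak caller were kept, and overlapping intervals were merged into regions. A library held a region when one of its top 75000 intervals overlapped it. The 3808 regions, called members here, were held by all 4 FHT1015 libraries and by none of the 4 DMSO libraries. Another 3999 regions showed the opposite pattern and 39625 were held by all 8 libraries.

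Primary neurons were cultured from E16.5 mouse cortex. The drug experiment had 100 nM FHT1015, described in the labels as an inhibitor of the ATPase of BAF, against 0.1% DMSO, for 10 or 30 min, in neurons depolarized with 50 mM KCl or left unstimulated, with 2 libraries in each of the 8 groups. At DIV18, neurons had CRISPR guides against Smarcc2 and one of 4 constructs, which were an empty vector, Smarcc2 S586A, Smarcc2 S586E and the wild-type form, or had non-targeting guides (NT). Each of these was depolarized for 30 min or left unstimulated, with 2 libraries a group. A further DIV7 set had guides against Arid2 or NT guides, with KCl for 30 min or unstimulated, again with 2 libraries a group. Per the labels, 1 µM tetrodotoxin and 100 µM D-AP5 silenced the neurons overnight in all groups, DNase was in the wells during the treatments, and nuclei were taken from wells of primary neurons. One embryo's cortex is 1 biological replicate in the labels, but no library is tied to an embryo, so p-values measure the spread between libraries, which may be technical. Peak lists give no check that the guides removed their target.

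BAF is a chromatin remodeler that uses ATP to slide and eject nucleosomes, and loss of its activity closes many enhancers. Smarcc2 encodes BAF170, a scaffold subunit of the complex in neurons, and Arid2 encodes a subunit found only in PBAF, a related form of the complex. An interval near the top of a peak list is a site where reads pile up far above the library's background. A rank is relative, so a region can move up a list because it gained reads or because others lost them.

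Few members lay at gene starts, and the sequences of those that did are shown because the start windows were the stretches where accessibility and reference sequence could be read together. Of the 3679 members that could be compared with RefSeq starts, 83 (2.26%) overlapped a RefSeq start window, which runs from 250 bases before to 50 bases after a gene's start, against 9.67% of all regions. The 6 windows below lay in members that were called higher with FHT1015 in depolarized libraries, covered at least 150 bases of the window and had every FHT1015 library above every DMSO library there. They came first by adjusted p of the 8 members that met this. All are from RefSeq, build GRCm38.p6 (mm10), 5′ to 3′ on the strand of the gene, and capitals mark matches on either strand to the motifs named after them. The windows are those of F7 (coagulation factor VII, chr8:13025784-13026083, plus strand), Gm51425 (chr17:17004866-17005165, plus strand), 1700029I15Rik (chr2:92382668-92382967, plus strand), Srp54a (a subunit of the signal recognition particle, chr12:55080246-55080545, plus strand), Zfp456 (a zinc finger protein, chr13:67375714-67376013, minus strand) and Abhd18 (chr3:40894009-40894308, plus strand).
F7: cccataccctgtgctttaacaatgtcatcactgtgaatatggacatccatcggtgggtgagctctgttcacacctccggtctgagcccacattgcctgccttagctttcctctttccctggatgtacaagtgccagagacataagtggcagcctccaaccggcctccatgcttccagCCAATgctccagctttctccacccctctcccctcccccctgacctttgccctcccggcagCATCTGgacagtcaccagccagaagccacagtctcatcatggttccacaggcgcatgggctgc
Gm51425: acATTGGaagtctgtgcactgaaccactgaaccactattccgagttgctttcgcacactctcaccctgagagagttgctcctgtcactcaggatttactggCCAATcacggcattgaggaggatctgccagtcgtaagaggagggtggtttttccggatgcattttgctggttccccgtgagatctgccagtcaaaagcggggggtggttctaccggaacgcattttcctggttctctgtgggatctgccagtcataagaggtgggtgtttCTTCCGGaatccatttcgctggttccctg
1700029I15Rik: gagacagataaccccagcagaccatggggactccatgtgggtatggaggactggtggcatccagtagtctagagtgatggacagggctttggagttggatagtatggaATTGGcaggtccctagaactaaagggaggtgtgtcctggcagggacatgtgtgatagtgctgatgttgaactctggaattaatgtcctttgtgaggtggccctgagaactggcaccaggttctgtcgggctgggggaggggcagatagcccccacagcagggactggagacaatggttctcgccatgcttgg
Srp54a: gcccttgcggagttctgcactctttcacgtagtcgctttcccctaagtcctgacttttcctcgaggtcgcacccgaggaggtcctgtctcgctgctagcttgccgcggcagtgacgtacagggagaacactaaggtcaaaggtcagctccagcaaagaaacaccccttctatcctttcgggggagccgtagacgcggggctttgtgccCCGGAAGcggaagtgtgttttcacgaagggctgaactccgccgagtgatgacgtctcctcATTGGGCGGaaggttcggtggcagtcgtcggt
Zfp456: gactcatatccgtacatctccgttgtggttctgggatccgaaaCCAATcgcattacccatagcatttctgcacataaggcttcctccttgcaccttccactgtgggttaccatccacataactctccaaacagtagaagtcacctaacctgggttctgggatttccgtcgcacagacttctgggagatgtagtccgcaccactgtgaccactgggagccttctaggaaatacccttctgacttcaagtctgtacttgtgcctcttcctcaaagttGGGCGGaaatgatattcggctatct
Abhd18: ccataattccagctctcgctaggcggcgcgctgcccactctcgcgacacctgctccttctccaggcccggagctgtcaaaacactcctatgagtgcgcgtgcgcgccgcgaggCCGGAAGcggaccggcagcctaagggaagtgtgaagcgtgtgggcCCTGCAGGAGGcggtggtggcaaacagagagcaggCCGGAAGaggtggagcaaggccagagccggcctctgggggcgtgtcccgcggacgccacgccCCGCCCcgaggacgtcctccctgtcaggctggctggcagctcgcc

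The F7 window held a CCAAT box (CCAAT) and an E-box of Neurod factors (CATCTG). The Gm51425 window held CCAAT boxes and an ETS motif (CCGGAAG), and the 1700029I15Rik window a CCAAT box. The Srp54a window held an ETS motif, a GC box (GGGCGG) and a CCAAT box, of which the GC box and the CCAAT box overlapped. The Zfp456 window held a GC box and a CCAAT box, and the Abhd18 window held ETS motifs, a GC box and a CTCF core motif. The ratio of observed to expected CpG was 0.23, 0.54, 0.10, 0.93, 0.51 and 0.80 in the windows in the order printed, so they ranged from CpG-poor to CpG-rich. Over the 87 start windows overlapped by a member, the median ratio was 0.55, against 0.77 over the 12787 windows overlapped by any region and 0.59 over all 20085 windows. A GC box was in 52.87% of windows at members, in 66.22% at any region and in 47.04% of all windows. A CCAAT box was in 39.08%, 37.62% and 38.12% of the same sets, and an ETS motif in 12.64%, 17.13% and 11.87%. The CTCF core was in 13.79%, 14.51% and 11.29%. The AP-1 motif (TGANTCA) was in 2.30%, 4.29% and 7.06%. A motif match is a description of letters and not of binding.

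The rank scores of members in these windows are given next, for regions picked because they were higher with FHT1015 in every depolarized library. Over all members tested there, the median difference was 0.36. The score of a region in a library is log2(133009/rank) for its best interval, where 133009 intervals make up the shortest list of the 44 libraries, and 0 for later ranks or no interval. A score 1 unit higher means a rank divided by 2, nearer to the top of the list. In depolarized neurons the Srp54a member scored 0.69 and 0.93 at 10 min and 1.85 and 1.78 at 30 min with FHT1015, against 0.39 and 0.46 at 10 min and 0.00 and 0.68 at 30 min with DMSO. Its mean score was 0.93 higher with FHT1015 (SE 0.18, adjusted p = 0.00633, limma). At DIV18 the same member scored 3.79 and 4.00 with Smarcc2 knockout and vector and 4.18 and 3.35 in NT neurons, with overlap between them. The F7 member scored 1.18, 1.19, 1.09 and 0.85 with FHT1015, against 0.32, 0.49, 0.00 and 0.00 with DMSO, and rose by 0.88 (SE 0.12, adjusted p = 0.00253, limma).

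Nearly every member was a rise in rank and not a gain of a peak. Of the 3808 members, 3578 (93.96%) had an interval in the whole list of all 4 DMSO libraries, 183 in 3 of them, 34 in 2, 12 in 1, and 1 in none. That single member lay inside Tsc2, which encodes tuberin, an inhibitor of mTORC1 signalling (chr17:24625237-24625817, mm10). Its ranks were 71359 and 67590 at 10 min and 54867 and 47314 at 30 min with FHT1015, with a fold enrichment by the authors of 5.21, 5.08, 4.82 and 5.4, and none of the 4 DMSO lists had an interval there. None of the other 36 libraries held it. The opposite set behaved otherwise by the same count, with 160 of 3999 regions (4.00%) absent from all 4 whole FHT1015 lists and 252 (6.30%) present in all 4.

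The FHT1015 lists were shorter than the DMSO lists. They had 143439 to 194928 autosomal intervals, against 240823 to 276666 with DMSO, so the limit fell at 38.5 to 52.3% of the FHT1015 lists and at 27.1 to 31.1% of the DMSO lists. The background, in reads piled up per base as read from the steps of the fold enrichment, was 4.39 to 7.45 with FHT1015 and 5.51 to 8.29 with DMSO. The authors' fold enrichment is the ratio of reads at a summit to one background level for the library. The interval at rank 75000 had a fold of 4.85, 4.53, 3.71 and 3.55 in the FHT1015 libraries, against 8.29, 8.08, 7.70 and 7.83 in the DMSO libraries.

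At the members themselves the fold enrichment differed less. Its median over members with an interval was 6.74, 5.90, 5.94 and 6.11 in the FHT1015 libraries, against 5.81, 5.63, 5.45 and 5.22 in the DMSO libraries, listed as 10 min and then 30 min. The median over the whole top 75000 was 11.12, 9.75, 7.05 and 7.10 with FHT1015 and 15.93, 15.59, 14.69 and 15.21 with DMSO. The fold at members was thus slightly higher in each FHT1015 library, while that of the list they were ranked in was lower. The median −log10 p at members, the value that sets the ranks, overlapped between the groups, with 30.06, 21.12, 16.71 and 21.75 in the FHT1015 libraries and 25.29, 18.67, 20.8 and 15.59 in the DMSO libraries. With FHT1015 the members had a median rank of 56014 and 58033 (10 min), and of 43382 and 42261 (30 min), against 105377 to 110036 with DMSO. These values chose the members or come from the same libraries, so no test was made, and their part in the later results was not tested.

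**Figure D1:**
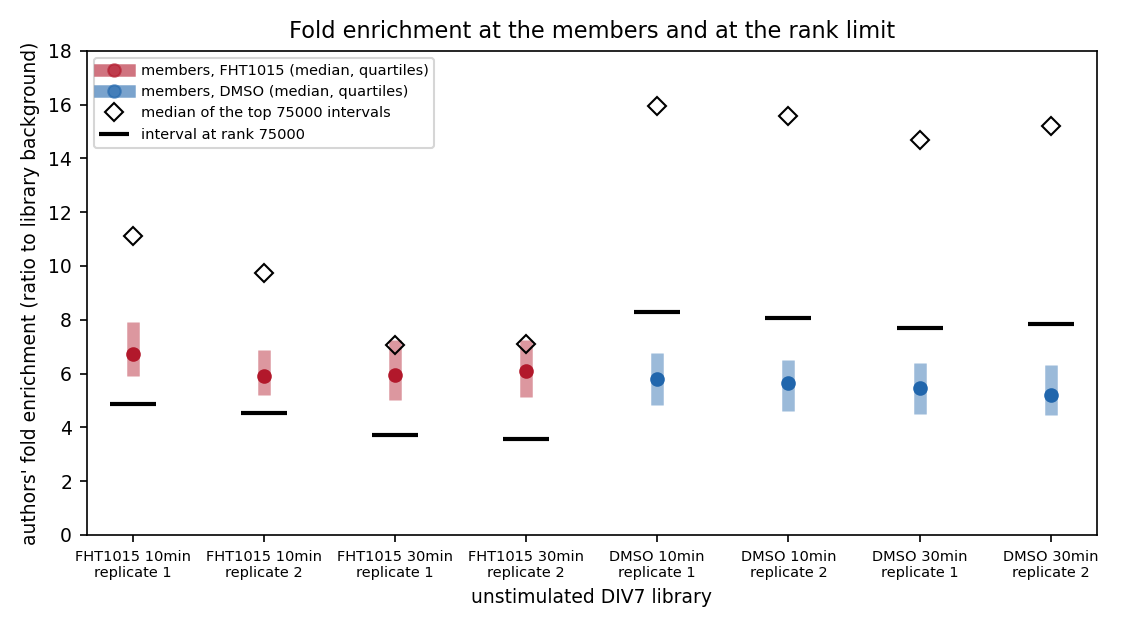
Authors' fold enrichment (linear scale) in the 8 unstimulated DIV7 libraries that chose the members. Circles and bars are the median and quartiles over members with an interval, diamonds the median of the top 75000 intervals and black lines the interval at rank 75000, which lies at 3.55 to 4.85 with FHT1015 and at 7.70 to 8.29 with DMSO while the members' medians stay between 5.22 and 6.74.

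The rule for the named members picked first those with the highest lowest score over the 4 unstimulated FHT1015 libraries, given as a description. They lay near or in Macrod2, Atxn1, Myl2, Sox6, Castor2, Ptpra, Ddx17, Eif4g2, Srgap3 and Zfp788. The member 11907 bp from Atxn1, the ataxin 1 gene (chr13:45976899-45977258), had ranks of 32032 and 34837 at 10 min and 26603 and 26432 at 30 min with FHT1015, against 93430 and 83854 at 10 min and 79380 and 79568 at 30 min with DMSO. Its authors' fold enrichment was 13.49, 10.57, 11.32 and 11.64 with FHT1015 and 6.67, 7.22, 7.34 and 7.37 with DMSO, in the libraries that chose it. The member at Ddx17, an RNA helicase gene (chr15:79524656-79527713), had a fold of 12.07, 9.75, 15.03 and 15.33 with FHT1015 against 7.10, 7.80, 6.99 and 6.91 with DMSO. This member lay within 1 kb of a 3′ end and away from the starts of genes of known strand. At the edge of the rule, the member with the weakest rank lay in Tanc1, at rank 74999 in 1 FHT1015 library. A non-member 5354 bp from Plk3 was at rank 75005 in 1 FHT1015 library and within the top 75000 in the other 3.

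Members were short and lay close to other open regions. Their median width was 319 bp, against 617 bp for all regions and 554 bp for the opposite set. The median gap to the nearest other region was 2096 bp for members and 3500 bp for all regions. By distance to protein-coding genes, 14.55% of members lay at a gene end (1 kb or less), 46.53% deeper inside a gene, 31.51% within 100 kb and 7.41% farther away, against 15.91%, 45.40%, 26.68% and 12.01% of all regions.

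The end of the gene at which they lay differed from that of regions in general. Gene strand was known for 16457 of 20665 genes, and chromosome 18 was left out. Genes of unknown strand were left out, so a region at one of them was placed by the other genes. Of 3679 members, 270 (7.34%) lay within 1 kb of a 3′ end and away from the starts of genes of known strand, against 3.31% of all regions and 1.01% of the opposite set. Another 252 (6.85%) lay 1 to 10 kb past a 3′ end, against 4.96% of all regions. Within 1 kb of a gene start lay 179 members (4.87%), against 9.96% of all regions and 23.35% of regions held by all 8 libraries. The high share at 3′ ends was not particular to regions held by all 4 FHT1015 libraries: it was 6.22%, 7.88% and 6.41% in regions held by 1, 2 and 3 FHT1015 libraries and by no DMSO library. These shares are descriptions with no test.

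**Figure D2:**
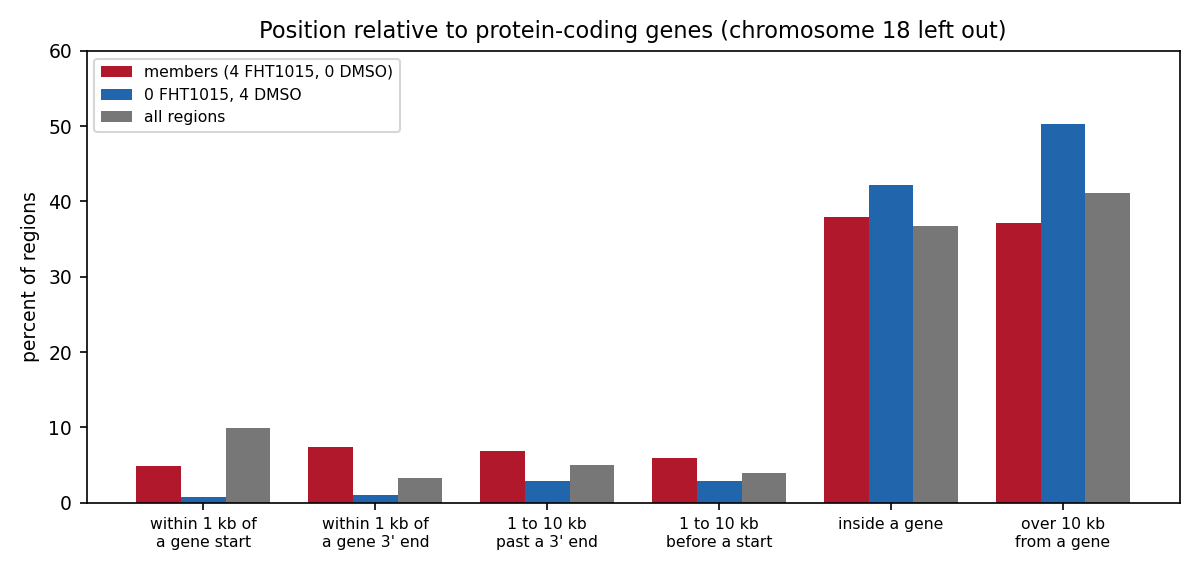
Percent of regions by position relative to protein-coding genes of known strand (bars start at 0), for members, for regions held by 0 FHT1015 and 4 DMSO libraries, and for all regions. Members exceed all regions at 3′ ends (7.34% against 3.31%) and fall short of them at starts (4.87% against 9.96%).

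The 36 libraries that the rule did not use show how far the members keep their rank elsewhere. In depolarized DIV7 neurons, 37.8 and 31.0% of members were held at 10 min and 54.7 and 45.04% at 30 min with FHT1015, against 14.4 and 11.3% at 10 min and 16.1 and 15.9% at 30 min with DMSO. Every FHT1015 library was above every DMSO library, with means of 42.1 ± 10.2% and 14.4 ± 2.21% (SD, n = 4 each), whereas all regions were held at 60.1 ± 5.64% with FHT1015 and 63.5 ± 1.07% with DMSO. The FHT1015 lists were again shorter, with 153003 to 217724 intervals against 227122 to 239494 with DMSO. Their background was 2.93 to 8.39 against 5.92 to 7.73. Whether list length sets the shares cannot be told apart from the drug in these libraries. In all, 150 members (3.94%) were held by all 4 depolarized FHT1015 libraries and no depolarized DMSO library, against 0.461% of all regions, and 1080 by none of the 8.

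At DIV18, the libraries labelled Smarcc2 knockout with vector held the most members. Unstimulated neurons with the Smarcc2 knockout and vector held 27.7 and 28.2%, those with wild-type Smarcc2 added back 13.1 and 12.6%, with S586A 14.8 and 12.7%, with S586E 12.4 and 18.7%, and NT neurons 10.7 and 12.9%. With KCl the values were 30.9 and 30.4% with knockout and vector, 16.5 and 18.0% with wild-type Smarcc2, 16.8 and 16.2% with S586A, 16.8 and 15.2% with S586E, and 18.7 and 18.4% in NT neurons. Both vector libraries were above every other library of their state. All regions were held at 43.25 and 44.47% with knockout and vector and at 38.55 to 44.42% in the other unstimulated libraries. With KCl these shares were 44.39 and 44.76%, against 42.58 to 44.79%. The vector lists had 195345 and 211671 intervals without KCl, against 229766 and 261710 in NT neurons, and the S586E lists had 186416 and 244610. The part of list length in these shares was not tested. In the Arid2 experiment the members were held at 7.98 to 10.3% in Arid2 knockout libraries and at 7.77 to 8.74% in NT libraries. All regions were held there at 45.79 to 48.54% and at 46.27 to 48.42%. Of the 3808 members, 456 (11.97%) were held by none of the 36 libraries, and the median member was held by 4 of them, against 15 for all regions.

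**Figure D3:**
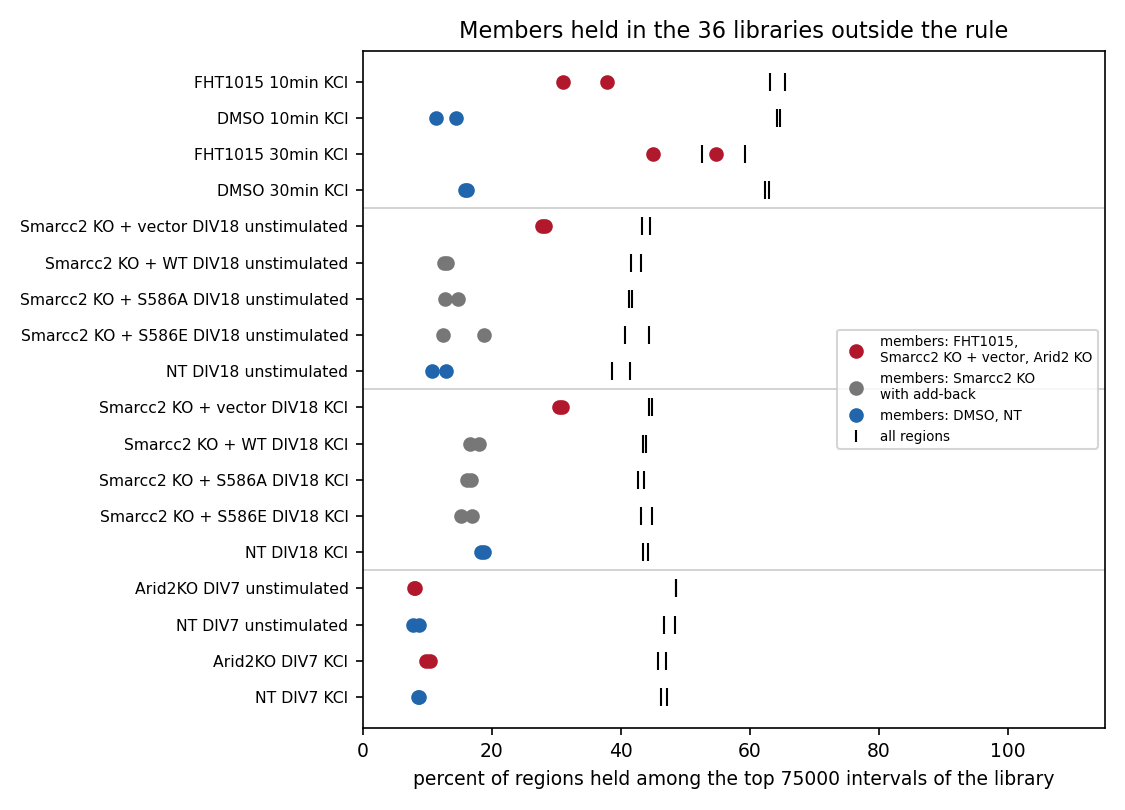
Percent of members (circles) and of all regions (ticks) held among the top 75000 intervals of each of the 36 libraries outside the rule, 2 libraries a group. FHT1015 libraries at 31.0 to 54.7% and Smarcc2 knockout libraries with vector at 27.7 to 30.9% stand above the others, which lie between 7.77 and 18.7%.

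With rank scores, 3605 of the 3808 members were scored in at least 2 of the 8 depolarized drug libraries and could be tested. Averaged over both times, 1186 of the 3808 rose with FHT1015 and 31 fell (limma, Benjamini-Hochberg adjusted p under 0.05 over 100716 regions). Over all regions tested, 15.4% were called higher and 21.5% lower. With no filter on low values the members' counts were 986 and 22, against 12.3% and 17.2% of all regions. When the fit also held the log2 interval number of each library, limma called 0 members in either direction. Every FHT1015 list was shorter than every DMSO list here, so 0 calls in that fit do not mean equal scores. The share of all regions called in that fit is not given, so the 0 is not a result about members alone. Without the interval number, 1660 were higher and 49 lower at an unadjusted p under 0.05, against 47.7% of all regions in either direction. Without the first FHT1015 library at 10 min 782 rose, and without one of the DMSO libraries 753 or 662 (10 min) and 680 or 700 (30 min). Of the opposite set, 28 rose and 2015 fell. With 30 min of drug, 1071 members rose and 31 fell, against 14.8% and 23.0% of all regions tested. With no filter the counts were 848 and 23, against 11.5% and 18.2%. With the interval number in the fit 0 rose and 1 fell, and 436 rose without the first DMSO library at 30 min and 445 without the second. Where an interval had to cover 50% of the region, 541 rose at 30 min.

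At 10 min, 5 members rose and 1 fell (0.0318% and 0.127% of all regions tested), and 731 were higher and 30 lower at an unadjusted p under 0.05. Those 761 of 3605 members stand beside 18.6% of all regions tested. With no filter 73 rose and 2 fell, against 0.404% and 0.812%. The 5 lay in or near Arpp21, Cntrl, G2e3, Qk and AW554918, and the 1 at Gp5. At 10 min the AW554918 member scored 1.19 and 1.55 with FHT1015 and 0.00 and 0.23 with DMSO, and it scored 0.00 in every 30 min library. It thus passed the filter on low values through the libraries where it was high. Cntrl, G2e3 and AW554918 were named after their values were seen. The difference between 30 and 10 min passed the test in 6 members, all lower, and in 0.0407% (higher) and 0.183% (lower) of all regions. With no filter it passed in 12 and 38 members, against 0.306% and 0.774%.

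**Figure D4:**
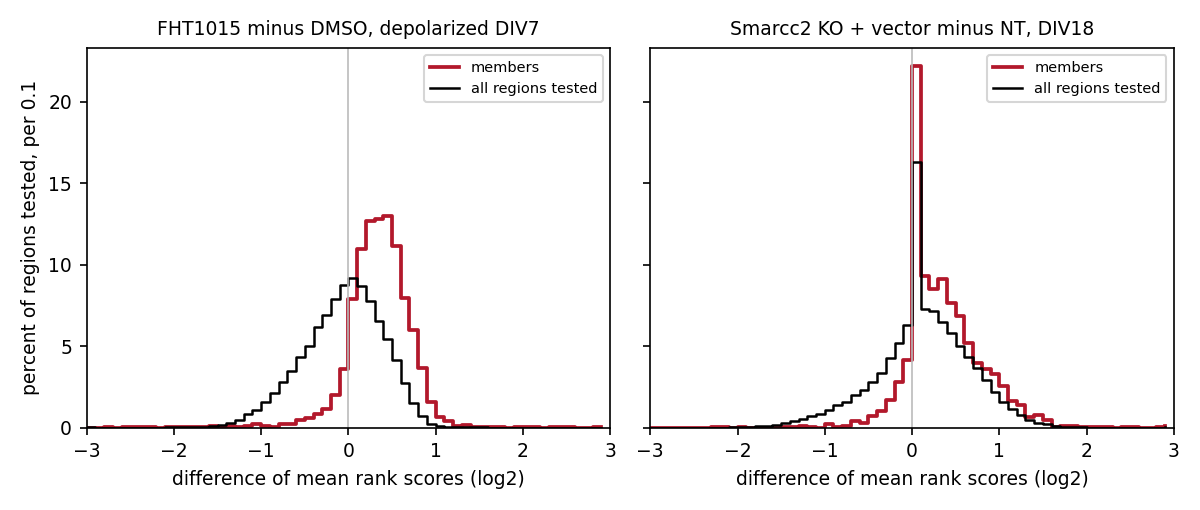
Distribution of the difference of mean rank scores (log2 scale, bins of 0.1) among members and among all regions tested, for FHT1015 minus DMSO in depolarized DIV7 neurons (left) and for Smarcc2 knockout with vector minus NT at DIV18 (right). The median of members tested lies at 0.36 (left) and 0.28 (right), and that of all regions tested at -0.03 and 0.10.

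Of members called higher with every FHT1015 library above every DMSO library, that with the lowest adjusted p lay past the 3′ end of Qk, which encodes the RNA-binding protein Quaking (chr17:10185059-10187193). In depolarized neurons it scored 2.51 and 2.35 at 10 min and 2.38 and 2.47 at 30 min with FHT1015, against 0.30 and 0.63 at 10 min and 0.86 and 0.92 at 30 min with DMSO. The groups did not overlap, and the difference was 1.75 (SE 0.13, adjusted p = 0.000573, limma). Its authors' fold enrichment was 20.14, 17.76, 14.08 and 13.22 with FHT1015 and 5.04, 6.41, 7.08 and 7.80 with DMSO. With each summit ranked on its own the difference was 0.59.

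A member at Ddx17 scored 1.53, 1.54, 1.38 and 1.77 with FHT1015, against 0.58, 0.71, 0.00 and 0.22 with DMSO, and rose by 1.18 (SE 0.15, adjusted p = 0.00187, limma), or by 0.75 by summit. A member 11674 bp from Rfx3, a transcription factor gene of the RFX family (chr19:27748416-27750046), scored 1.47, 1.33, 1.59 and 1.43 against 0.45, 0.42, 0.00 and 0.00 and rose by 1.24 (SE 0.13), or by 0.82 by summit. A member 30366 bp from Erbb4, a neuregulin receptor gene (chr1:69138943-69139181), scored 0.93, 0.78, 1.56 and 1.28 against 0.08, 0.00, 0.16 and 0.00 and rose by 1.08 (SE 0.13), or by 0.525 by summit. All 3 had FHT1015 libraries above all DMSO libraries. The others picked by adjusted p lay in or near Celf2, Nav2, Phactr3, Slc45a3, LOC108167320 and a second site in Qk, and rose by 0.79 to 1.08, or by 0.21 to 0.94 by summit.

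Members called lower in depolarized neurons were few, and 3 of the 4 named ones were high in the DMSO libraries at 30 min. The member in Fosl2, an AP-1 gene induced by activity (chr5:32139809-32140084), scored 0.83, 1.13, 2.02 and 2.18 with FHT1015 and 0.11, 0.41, 5.88 and 5.87 with DMSO. Its difference was -1.53 (SE 0.11, adjusted p = 0.000592, limma), but 0.46 with each summit ranked on its own. Members in Tnc and Nup62 had the same pattern, with -1.37 and -1.32, and Tnc had 0.10 by summit. At Fosl2 the overlapping deposited interval had an authors' fold of 123.33 and 126.62 in the DMSO libraries at 30 min, against 5.21 to 5.60 in unstimulated DMSO libraries. The member at Gp5, a platelet glycoprotein gene, was lower at both times, with 0.86, 0.48, 1.03 and 0.81 with FHT1015 against 2.42, 2.36, 2.08 and 2.46 with DMSO, a difference of -1.54 (SE 0.15) that was -0.07 by summit. At DIV18 the Gp5 member scored 1.61 and 2.17 with Smarcc2 knockout and vector, against 0.00 and 0.01 in NT neurons, and rose by 1.89 (adjusted p = 0.00964, limma), but by summit it did not pass the test (0.83).

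Some genes carried several members. Of 2933 genes that were nearest to a member within 100 kb, 2498 had 1 and 10 had 5 or more. Arpp21 had 21, Celf2 17 and Qk 11, genes for RNA-binding proteins. They were picked after their counts were seen, and members of 1 gene are not independent of each other. Arpp21 (chr9:112065091-112236288, minus strand) had 20 inside it and 1 past its 3′ end. In depolarized neurons 20 of the 21 rose with FHT1015, 18 by summit, 16 with no filter, 6 of 17 tested where an interval had to cover 50% of the region, and 0 with the interval number in the fit. In that last fit 17 of the 21 differences were above 0, with a median of 0.666, against 0.828 without the interval number. With FHT1015 the 21 had a mean score of 1.21 and 1.09 (10 min), and of 1.46 and 1.70 (30 min), against 0.41 and 0.48 at 10 min and 0.64 and 0.52 at 30 min with DMSO. The member of Arpp21 at chr9:112103853-112105346 scored 3.79 and 3.71 with FHT1015 against 0.59 and 0.83 with DMSO at 10 min. At 30 min it scored 3.07 and 3.24 against 3.33 and 3.30, so FHT1015 was the higher group at 10 min and the lower at 30 min, where the difference did not pass the test (-0.16, adjusted p = 0.354, limma). The member nearest the start did not pass the test (difference -0.14).

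The rise in these genes was not confined to members. Among 49 other regions tested in Arpp21 or within 25 kb past its end, 26 rose and 2 fell. In Celf2 (chr2:6539694-7396341, minus strand), 15 of 17 members rose, 12 by summit, 7 of 16 tested at 50% cover and 9 to 15 with a library left out. Of 232 other regions tested 136 rose and 5 fell. A long interval can score several regions, so some of these regions share their values with each other or with a member. In the same gene, 16 of the 17 members lay between 574.6 and 855.5 kb from the start of a gene of 856.6 kb. Most of its other regions lay in that span too. Mean scores of the 17 were 1.01 and 0.93 at 10 min and 1.6 and 1.8 at 30 min with FHT1015, against 0.56 and 0.59 at 10 min and 0.83 and 0.77 at 30 min with DMSO. In Qk, 8 of 11 members rose (5 to 9 with a library left out, and 7 of 8 tested at 50% cover) and 10 of the 37 other regions tested, and 2 members lay past its 3′ end. With the interval number in the fit 0 members of Celf2 and 0 of Qk rose. Their median differences were then 0.536 and 0.63, against 0.615 and 0.654 without it. None of the members of these genes rose in the Smarcc2 knockout. At DIV18, 20, 17 and 3 of them could be tested.

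**Figure D5:**
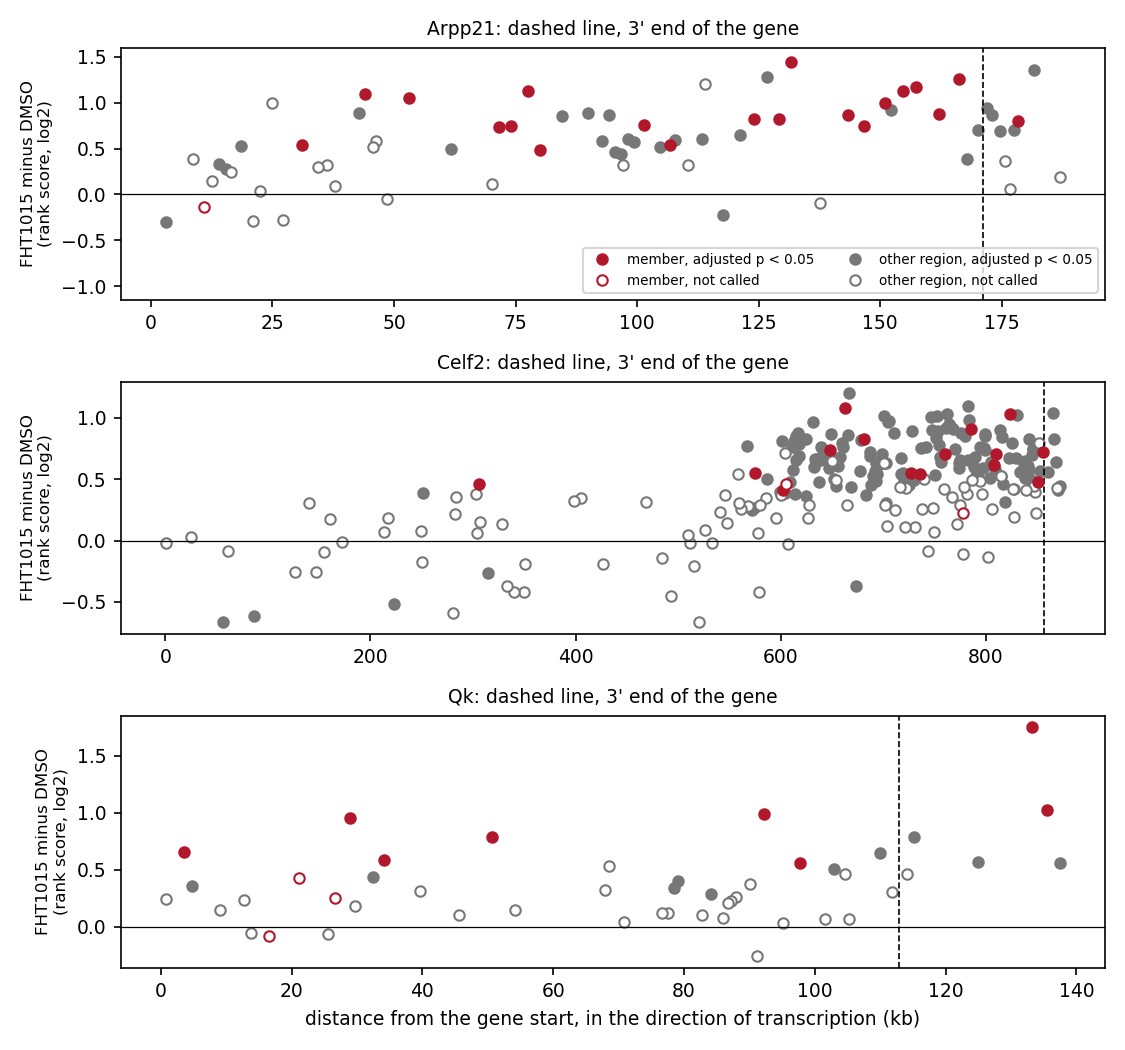
Difference of mean rank scores between FHT1015 and DMSO in depolarized DIV7 neurons (y axis, log2 scale) by distance from the gene start (x axis, kb), for regions in Arpp21, Celf2 and Qk and up to 25 kb past the dashed 3′ end. Filled points passed the test, red points are members. In Arpp21, 20 of 21 members are filled and above 0, in Celf2 15 of 17 and in Qk 8 of 11.

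In unstimulated DIV18 neurons, 3032 members could be tested. With Smarcc2 knockout and vector against NT, 205 of the 3808 rose and 4 fell, where 3.11% and 2.35% of all regions tested were called. With no filter the counts were 140 and 5 (1.81% and 1.32% of all regions). With the interval number in the fit they were 228 and 6, with no share over all regions given for that fit. Of the opposite set, 19 rose and 136 fell. Without the first NT library 37 members rose, and without the second 108. With wild-type Smarcc2 added back against vector, 3 rose and 154 fell (1.41% and 1.77% of all regions tested; with no filter 5 and 118, against 0.811% and 1.14%), a comparison that shares the vector libraries with the knockout one. Of the 205, 58 had also risen with FHT1015 in depolarized neurons, which is 28.3% of the 205 and 4.9% of the 1186. Of all 3808 members, 31.1% had risen with FHT1015 and 5.38% in the knockout, so neither share of the overlap was above that over all members. Without the first wild-type add-back library 45 fell, and without the second 30.

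The member in Ak6, an adenylate kinase gene (chr13:100659914-100660423), scored 1.13 and 0.98 with Smarcc2 knockout and vector and 0.00 and 0.00 in NT neurons, with 0.00 and 0.19 when wild-type Smarcc2 was added back. The member 4672 bp from Plekhd1 scored 1.21 and 0.99 against 0.00 and 0.00, with 0.00 and 0.00 on add-back. The member in Nsd3, which encodes a histone methyltransferase, scored 1.08 and 1.11 against 0.00 and 0.00, with 0.11 and 0.13 on add-back. These 3 were picked for the lowest adjusted p among members called higher. Of the 20 DIV18 libraries, Ak6 scored above 0 in 3, so it passed the filter through the vector libraries, where it was high, and no p is given for the 3. The Plekhd1 member also scored 0.66 and 0.68 with S586E. In the depolarized vector libraries they scored 0.00 and 0.00 (Ak6), 0.00 and 0.00 (Plekhd1) and 0.32 and 0.00 (Nsd3). Those called lower lay in or at Pde2a, Wdr33, Nrl and Kif5c, the last named after its values were seen. Pde2a, a cyclic nucleotide phosphodiesterase gene, scored 1.47 and 1.70 with knockout and vector, against 2.78 and 2.87 in NT neurons.

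With KCl in NT neurons at DIV18, 93 members rose and 37 fell, against 6.19% and 2.95% of all regions tested, and by summit 47 rose and 69 fell. With no filter 71 rose and 35 fell, against 3.73% and 1.69%. Without the first unstimulated NT library 34 rose. Members at Ptma, Plk2 and H4c8 were called higher. They lay within 1 kb of a 3′ end and away from the starts of genes of known strand. The member at Plk2, an activity-induced kinase gene, scored 7.58 and 7.43 with KCl against 1.89 and 2.07 without. In the Arid2 knockout 0 members were called in either direction by limma, of 1700 that could be tested, against 0% and 0.00250% of all regions. At an unadjusted p under 0.05, 46 were higher and 48 lower, which is 94 of 1700 beside 5.19% of all regions, and with no filter 4 and 1 were called, against 0.0908% and 0.0300%. These 4 unstimulated libraries had a background of 1.52 to 1.69.

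Members lay near the genes of each list written for cell types and pathways, and no test of their share was made. They were 1.97 to 6.12% of the regions within 100 kb of the genes of each of 13 lists, against 3.46% overall. For early activity genes, 28 of 717 regions were members, of which 7 rose and 1 fell with FHT1015 in depolarized neurons, where 101 of the 717 rose and 151 fell. For BAF and PBAF subunits, 28 of 823 were members, of which 6 rose and 0 fell, where 140 of the 823 rose and 131 fell. For synapse and excitability genes it was 35 of 980, with 9 that rose, where 130 of the 980 rose and 194 fell. Of all members 31.1% rose. Regions at gene ends numbered 14 for the pan-neuronal markers, 20 for excitatory neurons and 22 for inhibitory neurons, but also 12 for astrocytes, 11 for the oligodendrocyte lineage and 3 for microglia, so markers of other cells were open in these cultures too.

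At an end of a listed gene there were 12 members. They included those at Slc1a3, Sox10, Smarcd3, Rbfox3 (beside Engase), Slc17a7, Btg2, Hes1, Dlx5, Brd9, Dlx2 and Ppia. Of these, Sox10, Hes1 and Dlx5 lay over 10 kb from any gene of known strand, so start and 3′ end were not told apart. The others named lay within 1 kb of a 3′ end and away from the starts of genes of known strand. With FHT1015 in depolarized neurons, those at Hes1, a Notch target (difference 0.41, SE 0.13, adjusted p = 0.0378, limma), and Dlx5, an interneuron homeobox gene (0.68, SE 0.13, adjusted p = 0.00624), rose, and the other 10 did not pass the test. In the Smarcc2 knockout, Hes1 (1.03, adjusted p = 0.0324, limma) and Brd9, a subunit gene of a BAF form (1.52, adjusted p = 0.0412), rose. With FHT1015 the Hes1 member scored 0.40, 0.18, 1.35 and 1.21, against 0.42, 0.17, 0.35 and 0.55 with DMSO, so the libraries overlapped at 10 min. At DIV18 it scored 0.97 and 1.25 with knockout and vector, against 0.16 and 0.00 in NT neurons. The Brd9 member scored 2.27 and 2.65 against 0.31 and 1.57.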

How the data were processed

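The 44 deposited peak lists, 1 per library on build mm10, were used. The submitters' processing notes name Bowtie2, MACS2, Picard, SAMtools, bedtools, Trim Galore and FastQC, without versions or roles. Each deposited line gives a summit with the authors' fold enrichment (a ratio) and the authors' −log10 p and −log10 q values. These served to rank and describe peaks within a list. The lists do not hold read totals, so depth is unknown and no intervals for counting error are given.

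Each unique autosomal interval took its highest −log10 p as its rank value, and the first 75000 of each of the 8 unstimulated DIV7 drug libraries were merged where they shared at least 1 bp. Rank scores were fitted with limma 3.58.1 in R 4.3.3 (1 mean per group, trended variance, two-sided). The fits were on the 8 depolarized drug libraries, the 20 DIV18 libraries and the 8 Arid2 libraries. Adjustment was over regions scored in at least 2 libraries of the fit. The fits were also run on simulated data. The shifts added there were larger, and the scores they were added to higher, than those of most members. List length did not differ between groups there, and the recovery of shifts near the lowest score was not checked. Fits of 2 libraries a group borrow the spread of the other groups. Genes are protein-coding genes of RefSeq GRCm38.p6.

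The members and lists were chosen with earlier results of these data known. Named members were the 10 with the highest lowest score with FHT1015, those absent from DMSO lists, by lowest adjusted p in depolarized neurons the 10 higher with every FHT1015 library above every DMSO library and up to 5 lower, those at ends of listed genes, up to 3 a direction in the other comparisons, and 2 on each side of the limit. Some members picked by this rule are not reported here. Alternatives covered list length, overlap, filters, summits, a covariate, a replicate block and left-out libraries. Replicates shared 0.12 to 0.52% of their intervals exactly and were counted as separate. Replicate numbers pair no samples by the labels.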

Additional observations from a re-analysis of the deposited data

Results flagged for a closer look

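The effect of FHT1015 in depolarized neurons differed between 30 and 10 min at 6 members, by the interaction term of the limma fit. It was lower at 30 min in Cntrl (interaction -4.751 on the rank score scale, SE 0.44, adjusted p = 0.00738). There the 10 min scores were 4.96 and 5.06 with FHT1015 against 0.55 and 0.00 with DMSO, and the 30 min scores were 0.86 and 0.00 against 0.61 and 0.28. In Arpp21 the interaction was -3.198 (SE 0.18, adjusted p = 0.000406), with a drug effect of 3.04 at 10 min and of -0.16 at 30 min.

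In Fosl2, Tnc and Nup62 the DMSO libraries at 30 min were high. The interaction was -4.495 in Fosl2 (adjusted p = 0.000279), -2.581 in Tnc (adjusted p = 0.0183) and -2.641 in Nup62 (adjusted p = 0.0269). The drug effect at 30 min in these 3 was -3.78, -2.66 and -2.64, and at 10 min 0.72, -0.08 and 0.00. All 10 min scores of Nup62 were 0.00, the lowest score possible. Each score is that of the best overlapping interval. With each summit ranked on its own, the difference averaged over times had the opposite sign in Fosl2 and Tnc. Interactions by summit are not given for these members or for Cntrl and Arpp21.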

How the results depend on the processing

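Of the recomputed counts and shares, 138 stayed near the reported value and 85 moved. Of the recomputed values of single members, 304 kept their direction and call, 32 lost the call and 3 reversed. The cause was not tested. For counts of calls, shares over all regions are given only for the main fits and those with no filter. The other counts have no such share beside them and are not read as results about members alone. The mean share of members held by depolarized DMSO libraries was 12.17% with the top 50000 intervals and 17.53% with the top 100000. For FHT1015 against DMSO in depolarized neurons averaged over times, 741 rose with ranks to 75000 only, 645 rose and 47 fell with intervals covering at least 50% of a region, and 0 and 0 with the interval number in the fit. At 10 min, 44 rose and 3 fell by summit, 73 and 2 with no filter, 30 and 4 at 50% cover, and 3 and 0 with interval number. At 30 min, 541 rose and 52 fell at 50% cover, and 0 and 1 with interval number. For the difference between times, 19 were higher with ranks to 75000, 16 higher and 3 lower by summit, 12 and 38 with no filter, 9 and 28 at 50% cover, and 3 lower with interval number. In the Smarcc2 knockout 92 rose at 50% cover and 7 fell among regions scored in at least 4 libraries. With wild-type Smarcc2, 6 rose by summit, 5 with no filter, and 77 fell at 50% cover. With KCl at DIV18, 57 rose with ranks to 75000, 47 rose and 69 fell by summit, and 56 rose and 15 fell at 50% cover. In the Arid2 knockout 4 rose and 1 fell with no filter. By summit the differences reversed to 0.464 in Fosl2 and 0.103 in Tnc with FHT1015, and to 0.17 in Nrl in the knockout.

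With 1 library at a time left out of the rule, it gave 4107 to 5428 members. Leaving out a library loosens the rule, so a higher count was to be foreseen. Of the 3808 members of the full rule, 1 to 6 were absent from the DMSO lists that remained when 1 was left out, a count that could only stay or rise. With 1 depolarized library left out, the mean held shares of the same 3808 were 37.94 to 45.85% with FHT1015 and 13.87 to 15.46% with DMSO. Averaged over times, 662 to 1537 rose and 19 to 62 fell. At 10 min 2 to 14 rose and 0 to 4 fell, at 30 min 436 to 1189 rose and 19 to 81 fell, and 0 to 76 were higher and 3 to 47 lower in the difference between times. In the Smarcc2 knockout 37 to 219 rose and 1 to 13 fell, with wild-type Smarcc2 0 to 6 rose and 30 to 187 fell, with KCl at DIV18 34 to 63 rose and 11 to 36 fell, and in the Arid2 knockout 0 rose and 0 to 2 fell.

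The score differences between the libraries of a group, taken in order of replicate number, were compared between groups. These differences correlated at -0.007 to 0.047 in the depolarized set, 0.011 to 0.15 at DIV18 and -0.005 to 0.021 in the Arid2 set, so replicate numbers showed little pairing of libraries. With the replicate block, 1141 rose and 31 fell with FHT1015, 0 fell at 10 min, and 237 rose and 6 fell in the Smarcc2 knockout. The peak lists limit all results to ranks, and changes in read number were not measured.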
